A study of Mus musculus with 21 samples.

Results

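The 9 genes described here encode transcription factors that set or mark myeloid identity: Spi1, Cebpa, Cebpb, Cebpd, Maf, Zbtb46, Id2, Batf3 and Bhlhe40. They were selected by symbol. All 9 were among the 23250 genes of the deposited table, and all 9 were among the 13468 that passed a filter on low counts and were tested. RNA was sequenced from cells grown for 7 days from C57BL/6J mouse bone marrow in medium with 2.5% supernatant of a line that secretes GM-CSF, a growth factor for macrophages and dendritic cells. The series describes every culture, controls included, as lacking the mannose receptor (MR, gene Mrc1). Cells were left untreated (0 h) or received, for 4, 12 or 24 h, either FcMR or an isotype control protein. FcMR joins the Fc part of a human antibody, IgG1, to the extracellular part of MR, and the question was what soluble MR does to macrophages. The 7 groups held 3 libraries each. No untreated library was labelled 4, 12 or 24 h. Against untreated, the isotype protein and the added time in culture therefore cannot be told apart. No label says whether these came from separate mice or cultures, so p-values measure the spread between libraries, which may be technical.

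Macrophages and dendritic cells arise from shared progenitors. PU.1 (gene Spi1) is needed for both, and C/EBP factors act with it in the granulocyte and monocyte branch. c-Maf (gene Maf), a large Maf protein, goes with a macrophage identity. Zbtb46 marks classical dendritic cells and their committed precursors. Id2, an inhibitor of E-protein factors, and Batf3, an AP-1 factor, are needed for the cross-presenting dendritic cell type. Bhlhe40 is a repressor that GM-CSF cultures express and that restrains Il10.

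Against isotype, FcMR went with lower Cebpa at each time (at 12 and 24 h only before a correction for GC content), with lower Maf at 12 and 24 h, with higher Zbtb46 at 12 and 24 h, with higher Id2 at 4 and 24 h and with higher Bhlhe40 at 24 h. Spi1, Cebpb, Cebpd and Batf3 passed the test at no time before GC correction. "Called" means an adjusted p under 0.05 (edgeR's quasi-likelihood test, Benjamini-Hochberg adjustment over the 13468 genes). At 4 h, 2 of the 9 genes were called, where 17.7% of all genes were: 1 was higher (8.62% of all genes) and 1 lower (9.13%). The split over all genes depended on the scaling: 1161 were higher and 1229 lower with TMM, 1412 and 839 with RLE factors, 1243 and 608 with the factors of the deposited table, and 1509 and 835 in DESeq2. At 12 h, 3 were called against 16.1% of all genes, 1 higher (8.61%) and 2 lower (7.49%). At 24 h, 5 were called against 20.9% of all genes, 3 higher (11.4%) and 2 lower (9.44%). The median log2 fold change of the 9 genes stood at 7.59e-05, -0.13 and 0.09 at the 3 times, and that of all genes was -0.073, -0.017 and 0.0064.

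RefSeq's mouse promoter table (GRCm38.p6) held a window for 5 of the 9 genes: Cebpa, Cebpb, Id2, Batf3 and Zbtb46. Sequences are shown for the 3 of these that were called at 2 or more times, so that the motifs and base composition at their starts can be seen beside their values. Each sequence is the 250 bases before the RefSeq start, read 5′ to 3′ on the gene's strand. Capitals mark a TATA box (TATAAA) for Cebpa, 3 CCAAT boxes (CCAAT, either strand) for Id2, and an AP-1 motif (TGANTCA) for Zbtb46.
Cebpa, chr7:35119043-35119292, plus strand: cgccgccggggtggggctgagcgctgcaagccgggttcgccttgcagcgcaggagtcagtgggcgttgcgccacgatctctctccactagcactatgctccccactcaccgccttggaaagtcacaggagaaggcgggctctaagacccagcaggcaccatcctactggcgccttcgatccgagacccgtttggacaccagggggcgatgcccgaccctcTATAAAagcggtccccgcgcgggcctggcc
Id2, chr12:25096093-25096342, minus strand: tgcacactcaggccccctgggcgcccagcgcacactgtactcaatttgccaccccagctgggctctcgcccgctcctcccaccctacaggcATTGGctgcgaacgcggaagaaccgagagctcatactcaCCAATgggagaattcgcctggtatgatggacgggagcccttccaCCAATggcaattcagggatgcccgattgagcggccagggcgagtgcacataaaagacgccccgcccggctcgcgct
Zbtb46, chr2:181424389-181424638, minus strand: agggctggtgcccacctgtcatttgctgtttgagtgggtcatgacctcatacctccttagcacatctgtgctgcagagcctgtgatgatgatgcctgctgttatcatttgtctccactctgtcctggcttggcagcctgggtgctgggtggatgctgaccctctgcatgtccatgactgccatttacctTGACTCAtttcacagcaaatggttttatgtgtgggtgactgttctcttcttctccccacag
The RefSeq start used for Zbtb46 lies 35038 bases inside the GENCODE gene, and no other window was given. Its window ends in a run of c and t followed by acag, a form that the ends of introns share. Whether transcription starts there was not tested, so the AP-1 match may not lie in a promoter. The Id2 start lies 1048 bases inside its GENCODE gene, and the Cebpa start coincides with it.

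The windows of all 5 genes, with the 50 bases after the start, were searched on both strands for AP-1 (TGANTCA), CRE (TGACGTCA), the PU.1 core (AGGAAGT), C/EBP (TTGCNNCAA and TTGCNNAAT), the E-box CACGTG, NF-kB (GGANTTTCC), ISRE (TTCNNTTTC) and STAT (TTCNNNGAA). Zbtb46 held TGACTCA at -61 to -55, and 7.81% of 32851 mouse promoter windows hold TGANTCA. Batf3 held CACGTG at -247 to -242, found in 7.15% of windows, and a STAT match at -239 to -231, found in 8.3%. The TATA box and CCAAT box were added after the windows had been read. TATAAA occurs in 13.6% of windows and CCAAT on either strand in 37.4%. Cebpa and Id2 held none of the motifs searched other than these, which says only that those letters are absent from these windows.

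Libraries held between 5532225 and 66729533 counts. Levels are CPM, the count scaled by the library's TMM-adjusted size, and 3 counts stood for 0.0454 to 0.559 CPM depending on the library. Mrc1, the gene described as missing, had 0 to 11 counts in each of the 21 libraries. The labelled cell type was checked against its markers. Untreated cells held 21954 ± 546 CPM of Lyz2 (SD, n = 3) and 208 ± 17.9 of Adgre1 (F4/80), listed here as macrophage genes. They also held 1086 ± 57.9 of Itgax (CD11c) and 2878 ± 222 of H2-Aa (MHC class II), listed as dendritic cell genes. Genes of both lists were therefore present, which does not say which cells held them. In such bulk RNA fewer cells of a type and less RNA per cell cannot be told apart. Libraries also differed in how much of their counts fell on GC-rich genes. This GC tilt, the mean log2 deviation of the 10% of genes richest in GC minus that of the poorest 10%, was -0.84, -1.59 and 0.63 in the isotype 4 h libraries and -0.33, -1.25 and 0.43 in the FcMR 24 h libraries. It was -0.72, 0.72 and 0.82 in the FcMR 12 h libraries. It lay between -0.07 and -0.03 in those of isotype at 24 h. The tilt was 0.60, 0.82 and 0.83 in isotype 12 h, -0.41, -0.22 and -0.56 in FcMR 4 h, and 0.79, 0.01 and 0.43 in untreated libraries. It thus differed between groups as well as within them. After a correction for GC content, 20 of 21 libraries resembled their own group most. Isotype 4 h replicate 3 resembled FcMR 4 h more (r = 0.50) than its own group (r = 0.22), so the 4 h values of the 9 genes and the 4 h counts of the gene lists are also given without it. Over all genes 3151 were called at 4 h without it, against 2390 with it. Without it the 4 h log2 fold change was 0.43 for Maf, -0.06 for Zbtb46, -0.05 for Bhlhe40 and 0.54 for Cebpb, none of them called, and the values of the other 5 genes stand with their results. It also moved the isotype arm at 4 h against untreated, where Spi1 (-1.18, adjusted p = 0.00735), Cebpb (-0.92, 0.0169) and Batf3 (-1.96, 0.0115) were then called lower.

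Compared per kb of exon, Id2 had the highest level of the 9 genes in every group, from 122 ± 4.14 CPM per kb in isotype 24 h to 318 ± 25.7 in FcMR 4 h (SD, n = 3). Its range lay above that of the next gene in all 7 groups. Spi1 and Bhlhe40 came next in every group. In untreated cells Spi1 stood at 129 ± 25.9 and Bhlhe40 at 115 ± 0.754 CPM per kb, with overlapping ranges. Cebpa (39.3 ± 2.17) and Cebpb (37.8 ± 10) followed in untreated cells and overlapped too. Zbtb46 (5.48 ± 0.481) and Batf3 (4.86 ± 1.58) were far lower, and Cebpd (1.62 ± 0.664) and Maf (1.13 ± 0.156) lowest. Maf was last at 4 h in both arms, while in isotype 24 h it stood at 2.66 ± 0.443 CPM per kb, above both Zbtb46 (2.08 ± 0.0503) and Cebpd (0.447 ± 0.103). The exon length joins all annotated isoforms, so these levels are low estimates for genes with long alternative exons.

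**Figure D1:**
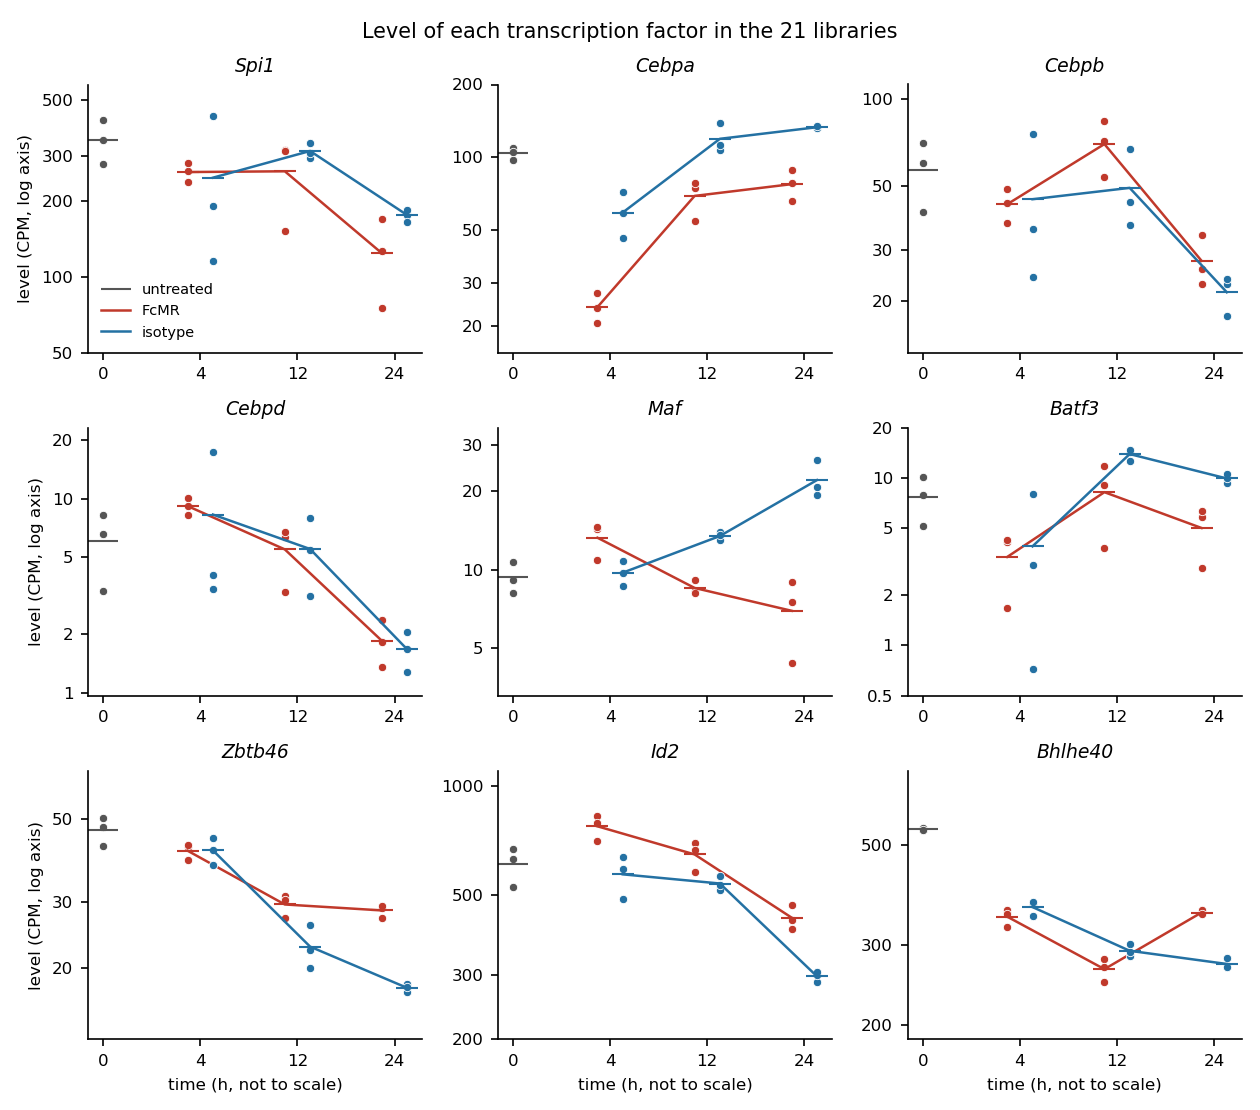
Level of each of the 9 genes (CPM after TMM scaling, log axis) against time in h, with 1 point per library, grey for untreated, red for FcMR and blue for isotype; short bars are the means of 3 libraries and lines join them. The Maf lines cross between 4 and 12 h, the Zbtb46 lines part after 4 h, and the points of Spi1, Cebpd and Batf3 scatter widely within groups, most of all in isotype 4 h.

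Maf (ENSMUSG00000055435, chr8:115682942-115707794, minus strand, GENCODE M21 on GRCm38) encodes c-Maf. Untreated libraries held 8.16, 9.11 and 10.7 CPM. At 4 h the FcMR libraries held 14.3, 10.83 and 14.5 CPM and the isotype libraries 8.62, 10.82 and 9.73, so the lowest of one group and the highest of the other were nearly level. The difference was not called (log2 fold change 0.43, SE 0.20, adjusted p = 0.154). At 12 h the order had turned, with 9.10, 8.29 and 8.11 CPM under FcMR and 13.9, 12.9 and 13.5 under isotype. No library overlapped, and the log2 fold change was -0.66 (SE 0.19, adjusted p = 0.024). At 24 h FcMR libraries held 7.50, 8.97 and 4.39 CPM and isotype libraries 26.1, 19.2 and 20.6. Every FcMR library lay far below every isotype library, a 3.09-fold lower level (log2 -1.63, SE 0.20, adjusted p = 8.02e-06).

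The isotype arm itself moved. Against untreated cells Maf rose by log2 0.53 at 12 h (SE 0.19, adjusted p = 0.0359) and by 1.24 at 24 h (SE 0.19, adjusted p = 5.33e-05), or 2.35-fold. The FcMR means, 8.50 ± 0.526 CPM at 12 h and 6.95 ± 2.34 at 24 h (SD, n = 3), stood near the untreated mean of 9.33 ± 1.29, and FcMR was not tested against untreated. From 4 to 24 h the FcMR effect on Maf changed by log2 -2.06 (SE 0.28, adjusted p = 9.85e-05), a comparison in which 3 of the 9 genes and 13.9% of all genes were called. Of the 3, 1 was lower (5.72% of all genes) and 2 were higher (8.19%). The split over all genes turned with the scaling: 1103 were higher and 770 lower with TMM, 752 and 927 with RLE factors, 548 and 755 with the factors of the deposited table, 820 and 1058 in DESeq2, and 1381 and 1753 after GC correction. Both 12 h calls on Maf were lost when some single libraries were left out. For FcMR against isotype, adjusted p was 0.0703 and 0.0789 without FcMR replicate 2 or 3 and 0.0746 and 0.066 without isotype replicate 1 or 3. For isotype against untreated it was 0.0724 and 0.0711 without isotype replicate 1 or 3 and 0.12 and 0.0945 without untreated replicate 1 or 2. Without the filter on low counts the 2 values were 0.0529 and 0.0598. The 24 h calls held in all 16 alternatives each.

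Zbtb46 (ENSMUSG00000027583, chr2:181387762-181459426, minus strand) had 47.4, 50.2 and 42.2 CPM in untreated libraries. At 4 h, FcMR (42.0, 42.4 and 38.8 CPM) and isotype (44.5, 41.3 and 37.7) overlapped and the means were 41.1 ± 2.01 and 41.2 ± 3.44 (SD, n = 3). At 12 h FcMR libraries held 31.2, 30.3 and 27.2 CPM and isotype libraries 22.4, 26.1 and 19.97. All FcMR libraries were above all isotype libraries, by log2 0.38 (SE 0.10, adjusted p = 0.0123). At 24 h the values were 29.0, 29.3 and 27.2 CPM under FcMR and 17.3, 18.1 and 17.8 under isotype. The difference was 1.61-fold (log2 0.69, SE 0.10, adjusted p = 8.23e-05). In the isotype arm Zbtb46 fell at 12 and 24 h, with log2 fold changes of -1.04 and -1.40 (adjusted p = 1.8e-07 and 6.03e-09). Every 24 h library of either arm was under every untreated library. The 12 h call was lost without FcMR replicate 1 or 2 (adjusted p = 0.0637 and 0.0532) and without isotype replicate 1 or 3 (0.0617 and 0.11). It was also lost with the scaling of the deposited normalized table (0.182) and with only the 2 groups fitted (0.116). The 24 h call held in all 16 alternatives. From 4 to 24 h the FcMR effect grew by log2 0.69 (SE 0.14, adjusted p = 0.00388), a call that the scaling of the deposited table took to 0.0667.

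Id2 (ENSMUSG00000020644, chr12:25093799-25097140, minus strand) showed the same side at each time. At 4 h the FcMR libraries held 827, 793 and 705 CPM and the isotype libraries 590, 486 and 636, without overlap. The log2 fold change was 0.44 (SE 0.11, adjusted p = 0.00856), and 0.53 (adjusted p = 0.00337) without isotype replicate 3. With only these 2 groups fitted, the 4 h call was lost (adjusted p = 0.0894). At 12 h, 698, 666 and 580 CPM stood against 564, 517 and 535, again without overlap, but the difference was not called (log2 0.27, SE 0.11, adjusted p = 0.115). At 24 h FcMR libraries held 427, 468 and 403 CPM and isotype libraries 287, 301 and 307, a 1.45-fold difference (log2 0.54, SE 0.11, adjusted p = 0.00143). Untreated libraries held 527, 628 and 673 CPM. At 24 h both arms were below them, and the isotype arm fell by log2 1.03 (SE 0.11, adjusted p = 6.59e-07).

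Bhlhe40 (ENSMUSG00000030103, chr6:108660629-108666925, plus strand) was the steadiest of the 9 genes, with a pooled within-group SD of 0.052 on the log2 CPM scale against a median of 0.19 over tested genes with a mean of at least 5 CPM. Untreated libraries held 541, 546 and 540 CPM. At 4 h FcMR (359, 353 and 330 CPM) and isotype (371, 348 and 375) overlapped. At 12 h FcMR held 280, 269 and 249 CPM, all below the 302, 284 and 290 of isotype, by a difference that was not called (log2 -0.13, SE 0.06, adjusted p = 0.168). At 24 h FcMR libraries held 353, 359 and 351 CPM and isotype libraries 268, 269 and 282, again without overlap but in the opposite order. The difference was 1.3-fold (log2 0.38, SE 0.06, adjusted p = 0.000197), and it changed from 4 to 24 h by log2 0.45 (SE 0.09, adjusted p = 0.00236, or 0.118 without the filter on low counts). In the isotype arm Bhlhe40 fell at each time against untreated, with log2 fold changes of -0.57, -0.89 and -0.99 (adjusted p = 9.46e-07, 2.6e-09 and 7.99e-10). The call at 24 h against isotype and the 3 against untreated each held in all 16 alternatives.

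**Figure D2:**
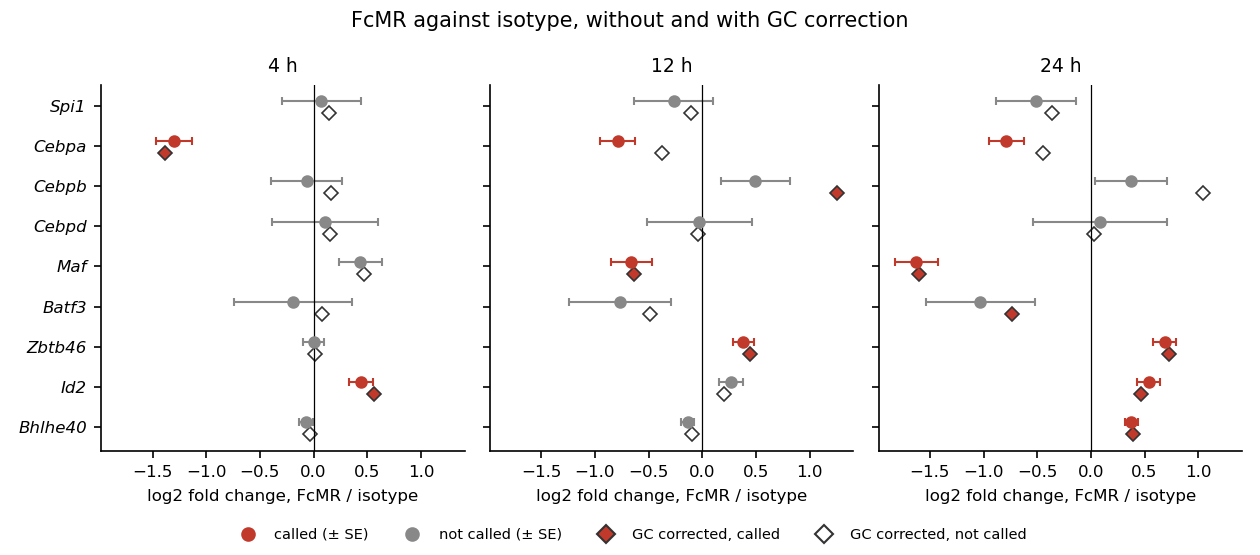
Log2 fold change of FcMR over isotype (x axis) for each gene (y axis) at 4, 12 and 24 h; circles with bars are the estimate ± SE, red where called, and diamonds are the estimate after correction for GC content, red where called. Maf, Zbtb46, Id2 and Bhlhe40 have nearly the same estimate either way at 24 h, while Cebpa, Cebpb and Batf3 shift at 12 and 24 h.

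Cebpa (ENSMUSG00000034957, chr7:35119293-35121928, plus strand) encodes C/EBP alpha, which opens the granulocyte and monocyte programme. Untreated libraries held 109, 97.4 and 105 CPM. At 4 h FcMR libraries held 20.6, 27.4 and 23.7 CPM and isotype libraries 58.6, 46.2 and 71.9. Every FcMR library was under every isotype library, a 2.47-fold lower level (log2 -1.30, SE 0.17, adjusted p = 3.58e-05). Without isotype replicate 3 the log2 fold change was -1.13 (adjusted p = 0.000197). Before GC correction that library, at 71.9 CPM, stood with its own group for this gene. After correction it lay between the groups, at 45.4 CPM. Isotype replicates 1 and 2 then held 87.0 and 106 CPM, and the FcMR libraries 25.1, 31.4 and 31.0. At 12 h the values were 54.3, 74.7 and 78.1 CPM against 107, 112 and 138 (log2 -0.79, SE 0.16, adjusted p = 0.00207). At 24 h they were 78.2, 65.5 and 88.0 CPM against 132, 132 and 135 (log2 -0.79, SE 0.16, adjusted p = 0.00167). FcMR libraries were below isotype libraries at each time.

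Only the 4 h call on Cebpa was kept after GC correction (log2 -1.39, adjusted p = 0.000613). At 12 h the corrected value was -0.37 (adjusted p = 0.294) and at 24 h -0.45 (adjusted p = 0.182). Transcripts of Cebpa average 61.0% GC, and within groups its level followed the GC tilt (r = 0.88 over 21 libraries, a description across libraries that share their groups). The correction did not narrow its spread: the pooled within-group SD was 0.21 on the log2 CPM scale before and 0.34 after. How far GC recovery accounts for the 12 and 24 h values was not tested. In the isotype arm Cebpa fell by log2 0.81 at 4 h (SE 0.16, adjusted p = 0.000841), which became -0.10 (adjusted p = 0.794) after GC correction. At 24 h it stood log2 0.36 above untreated (adjusted p = 0.0837, and 0.0313 in DESeq2), and 0.83 after correction (adjusted p = 0.00646).

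Cebpb (ENSMUSG00000056501, chr2:167688915-167690418, plus strand) encodes C/EBP beta, which drives activated macrophage and emergency granulocyte genes. Untreated libraries held 70.2, 40.5 and 59.8 CPM. At 4 h FcMR libraries held 48.9, 43.6 and 37.3 CPM, inside the spread of the isotype libraries at 35.5, 24.2 and 75.3 (log2 -0.06, SE 0.33, adjusted p = 0.933). At 12 h FcMR libraries held 53.5, 84.1 and 71.7 CPM and isotype libraries 36.5, 43.9 and 67.3, which overlap (log2 0.49, SE 0.32, adjusted p = 0.381). After GC correction the difference was 1.25 (adjusted p = 0.0252), with corrected values of 97.9, 40.6 and 34.3 CPM against 20.9, 19.98 and 27.9, so 1 FcMR library was far above the others. At 24 h FcMR libraries held 25.8, 34.0 and 22.9 CPM and isotype libraries 22.9, 17.7 and 23.8 (log2 0.37, SE 0.34, adjusted p = 0.513), and the corrected difference was 1.05 (adjusted p = 0.0758). In the isotype arm Cebpb fell by log2 1.40 from untreated to 24 h (SE 0.34, adjusted p = 0.00271), and the corrected value was -0.48 (adjusted p = 0.354). Its exons overlap those of Tmem189 on the other strand, which had 57242 counts over all libraries. The labels name no stranded counting, so reads of the 2 genes cannot be told apart where they overlap. Cebpa, Maf and Bhlhe40 also overlap antisense genes (Gm45091, Gm15655 and 0610040F04Rik), of which the latter 2 had 131 and 36 counts over all libraries. At 67.2% the transcripts of Cebpb are the richest in GC of the 9 genes, and its r with the GC tilt within groups was 0.59.

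Cebpd (ENSMUSG00000071637, chr16:15887286-15891031, plus strand) encodes C/EBP delta, a factor induced by inflammatory signals. It was among the least expressed of the 9 genes, with as few as 12 counts in a library. Its exons overlap those of Spidr on the other strand, which had 5319 counts over all libraries. Reads of these 2 genes cannot be told apart there either. FcMR and isotype overlapped at each time, with adjusted p of 0.927, 0.986 and 0.954 at 4, 12 and 24 h. At 4 h the FcMR libraries held 10.1, 8.20 and 9.13 CPM and the isotype libraries 4.02, 3.43 and 17.4, so the isotype mean rested on replicate 3. Without that library Cebpd was called higher under FcMR (log2 1.29, adjusted p = 0.0446). At 12 h the libraries held 3.30, 6.37 and 6.75 CPM under FcMR and 3.14, 5.43 and 7.94 under isotype. By 24 h FcMR libraries were at 2.36, 1.36 and 1.83 CPM, level with isotype. At 24 h isotype libraries held 2.06, 1.29 and 1.67 CPM against 8.26, 3.36 and 6.54 in untreated cells, a fall of log2 1.82 (SE 0.57, adjusted p = 0.0157). That call was lost without isotype replicate 2 (adjusted p = 0.0663) and without untreated replicate 1 (0.0627), and in limma-voom (0.0801). Within groups Cebpd followed the GC tilt (r = 0.79 over 21 libraries), though its transcripts hold 48.9% GC. Its pooled SD on the log2 CPM scale was 0.68 before GC correction and 0.70 after.

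Spi1 (ENSMUSG00000002111, chr2:91082390-91115756, plus strand) encodes PU.1. FcMR libraries held 262, 282 and 237 CPM at 4 h, 151, 319 and 315 at 12 h, and 126, 75.4 and 170 at 24 h. Isotype libraries held 192, 116 and 434 CPM at 4 h, 296, 310 and 340 at 12 h, and 176, 165 and 185 at 24 h. No difference was called: log2 0.07 (SE 0.37), -0.27 (SE 0.37) and -0.51 (SE 0.37), with adjusted p of 0.933, 0.741 and 0.399. The within-group deviations of Spi1 followed the GC tilt almost exactly (r = 0.99 over 21 libraries), and correction narrowed its pooled SD from 0.50 to 0.19. Corrected differences were 0.14, -0.10 and -0.36 (adjusted p = 0.511, 0.673 and 0.0623). Without isotype 4 h replicate 3 the uncorrected 4 h difference was 0.76 (adjusted p = 0.0914). From 4 to 24 h the FcMR effect on Spi1 changed by log2 -0.58 (adjusted p = 0.514), and by -1.26 (adjusted p = 0.0443) without that library.

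In the isotype arm Spi1 fell from 419, 279 and 349 CPM untreated to the 24 h values above, by log2 0.99 (SE 0.37, adjusted p = 0.0403). The call was lost without any one of the isotype replicates 1, 2 and 3 (adjusted p = 0.0969, 0.114 and 0.0879) or of untreated replicates 1 and 3 (0.13 and 0.0793). It was also lost without the filter on low counts (0.0638). After GC correction Spi1 fell by log2 0.73, with an adjusted p of 0.000225.

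Batf3 (ENSMUSG00000026630, chr1:191097847-191108945, plus strand) had the widest spread of the 9 genes, a pooled SD of 0.85 on the log2 scale that GC correction brought to 0.44. Its counts ran from 4 to 977 per library, and untreated libraries held 10.2, 5.15 and 7.93 CPM. At 24 h FcMR libraries held 5.86, 2.90 and 6.34 CPM and isotype libraries 9.32, 9.97 and 10.6, without overlap, yet the difference was not called (log2 -1.03, SE 0.51, adjusted p = 0.176). After GC correction it was -0.73 and called (adjusted p = 0.0147), with corrected values of 7.80, 5.98 and 6.02 CPM against 10.2, 11.2 and 11.3. At 12 h FcMR libraries (3.82, 11.9 and 9.03 CPM) were all below isotype libraries (14.4, 12.6 and 14.8), by log2 -0.77 (SE 0.47, adjusted p = 0.344). The 4 h isotype libraries held 3.02, 0.722 and 7.99 CPM and the FcMR libraries 4.18, 4.29 and 1.68. In the isotype arm Batf3 stood log2 0.87 above untreated at 12 h (SE 0.48, adjusted p = 0.161) and 0.37 above at 24 h (SE 0.49, adjusted p = 0.569). After GC correction both were called, at 0.58 (adjusted p = 0.0203) and 0.92 (adjusted p = 0.00104). The 4 h difference changed sign with isotype replicate 3, from -0.19 (adjusted p = 0.867) to 0.90 (adjusted p = 0.288) without it.

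**Figure D3:**
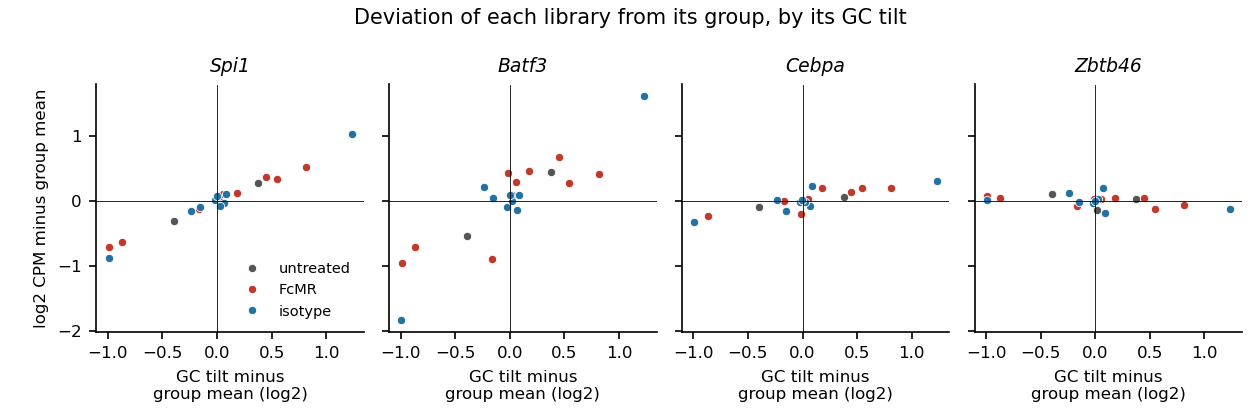
Deviation of log2 CPM from the group mean (y axis) against the deviation of the library's GC tilt from its group mean (x axis) for Spi1, Batf3, Cebpa and Zbtb46, with 1 point per library (grey untreated, red FcMR, blue isotype). Spi1 (r = 0.99), Batf3 (r = 0.88) and Cebpa (r = 0.88) follow the tilt, and Zbtb46 (r = -0.41) does not rise with it.

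Ranges of FcMR and isotype libraries did not overlap for 3 of the 9 genes at 4 h, 6 at 12 h and 6 at 24 h, where 29.7%, 35.4% and 34.4% of all genes tested had no overlap. Against untreated cells, the isotype arm had 2 of the 9 genes called at 4 h (35.6% of all genes), both lower, with 20.4% of all genes higher and 15.2% lower. It had 3 called at 12 h (41.6%), 1 higher (22%) and 2 lower (19.6%), and 7 at 24 h (42.2%), 1 higher (21.3%) and 6 lower (20.9%). Of the 7, Maf alone rose, and Spi1, Cebpb, Cebpd, Zbtb46, Id2 and Bhlhe40 fell. After GC correction 8 were called, where 7296 of the 13468 genes were: 3 were higher (3732 of all genes) and 5 lower (3564). Cebpa and Batf3 joined Maf, and Cebpb was no longer called. The isotype libraries enter both sets of comparisons, and the untreated libraries enter 3. Markers of other marrow cells moved over the same hours. The 4 eosinophil markers summed to between 654 and 861 CPM in untreated libraries, 93.8 to 134 in isotype 24 h and 76.8 to 106 in FcMR 24 h, and all 4 fell in isotype against untreated at 24 h. Of 11 neutrophil markers, 10 fell and 1, Mmp8, rose in that comparison. Their sum was 599 to 749 CPM in FcMR 24 h and 1410 to 1497 in isotype 24 h, mostly Mmp8 (451 ± 68.2 against 1248 ± 60.5 CPM, SD, n = 3). Elane was at 0 in all FcMR 24 h libraries. Mast cell and basophil markers (8 in the table) summed to 46.4 to 57.3 CPM untreated, 11.6 to 13.6 in isotype 24 h and 10.7 to 17.8 in FcMR 24 h. Lymphocyte markers summed to 3.59 to 6.76 CPM over all libraries. The 8 stromal and endothelial markers, though low, were higher under FcMR, with sums of 9.60 to 15.8 CPM against 5.87 to 6.95 under isotype at 12 h and 8.94 to 10.1 against 4.51 to 5.40 at 24 h. These ranges did not overlap, and of the 4 markers tested 2 were called higher at 12 h (Dcn and Pecam1) and 1 at 24 h (Dcn). At 4 h the sums did not overlap either, at 11.05 to 14.93 CPM under FcMR and 8.904 to 10.46 under isotype, though no tested marker was called. The part of these cells in the changes of the 9 genes, Zbtb46 among them, was not tested.

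Other macrophage transcription factors were compared by a list of 11, all tested. Against isotype, 2 rose and 5 fell at 4 h, 2 rose and 4 fell at 12 h, and 1 rose and 4 fell at 24 h. Of all genes, 8.62%, 8.61% and 11.4% were called higher at the 3 times, and 9.13%, 7.49% and 9.44% lower. The balance at 4 h turned with GC correction, after which 4 of the 11 rose and 3 fell. At 12 h 3 then rose and 4 fell, and at 24 h 2 rose and 5 fell. Of the 13468 genes, 2320 were higher and 1436 lower at 4 h after GC correction, 1867 and 1506 at 12 h, and 2195 and 1839 at 24 h. The list's median log2 fold change was -0.30, -0.16 and -0.22, beside -0.073, -0.017 and 0.0064 for all genes. Pparg, a lipid-sensing nuclear receptor of alveolar macrophages, fell at each time, with log2 fold changes of -0.70, -1.54 and -2.24. Bach1, a haem-responsive repressor, fell at each time too (-0.41, -0.76 and -0.68). Egr2 fell at each time as well (-0.59, -0.76 and -0.45), and Klf4 fell at 12 h (-1.25). Spic, the haem-induced factor of red pulp macrophages, went the other way, with log2 1.65 at 12 h and 1.91 at 24 h. Tfec rose by 0.56 at 4 h and 0.50 at 12 h, and Zeb2 by 0.34 at 4 h. The Klf4 call was lost after GC correction. Without isotype 4 h replicate 3, 2 rose and 3 fell at 4 h, the median turned to 0.09, and Egr2 was no longer called (-0.40, adjusted p = 0.0546).

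Of 13 other dendritic cell transcription factors, all tested, 6 rose and 1 fell at 4 h, 4 rose and 1 fell at 12 h, and 4 rose and none of the 13 fell at 24 h. Of all genes, 8.62%, 8.61% and 11.4% were called higher at these times, and 9.13%, 7.49% and 9.44% lower. The list's median was 0.60, -0.02 and 0.05, beside -0.073, -0.017 and 0.0064 for all genes. After GC correction 8, 4 and 6 of the 13 rose and none of the 13 fell. Of the 13468 genes, 2320, 1867 and 2195 were then called higher, and 1436, 1506 and 1839 lower. Irf4, which acts in the migratory CD11b+ type, rose at each time by log2 0.50, 0.60 and 0.70, from 31.1 ± 2.77 CPM under isotype to 50.3 ± 4.92 under FcMR at 24 h. Like Zbtb46 it was below its untreated level of 118 ± 2.60 CPM in both arms at that time. Batf2, an interferon-induced relative of Batf3, rose by 1.62, 1.02 and 0.77. Nr4a3 rose at 4 h (1.16), Tcf4 at 4 h (0.98) and 12 h (0.57), Batf (1.32) at 12 h and Nfil3, a factor of cross-presenting dendritic cell development, at 24 h (0.69). Spib fell at 4 h (-0.72) and 12 h (-0.88), and neither call was kept after GC correction. Without isotype 4 h replicate 3, 8 rose at 4 h and none of the 13 fell (median 0.73), and Spib was no longer called (-0.48, adjusted p = 0.0612).

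**Figure D4:**
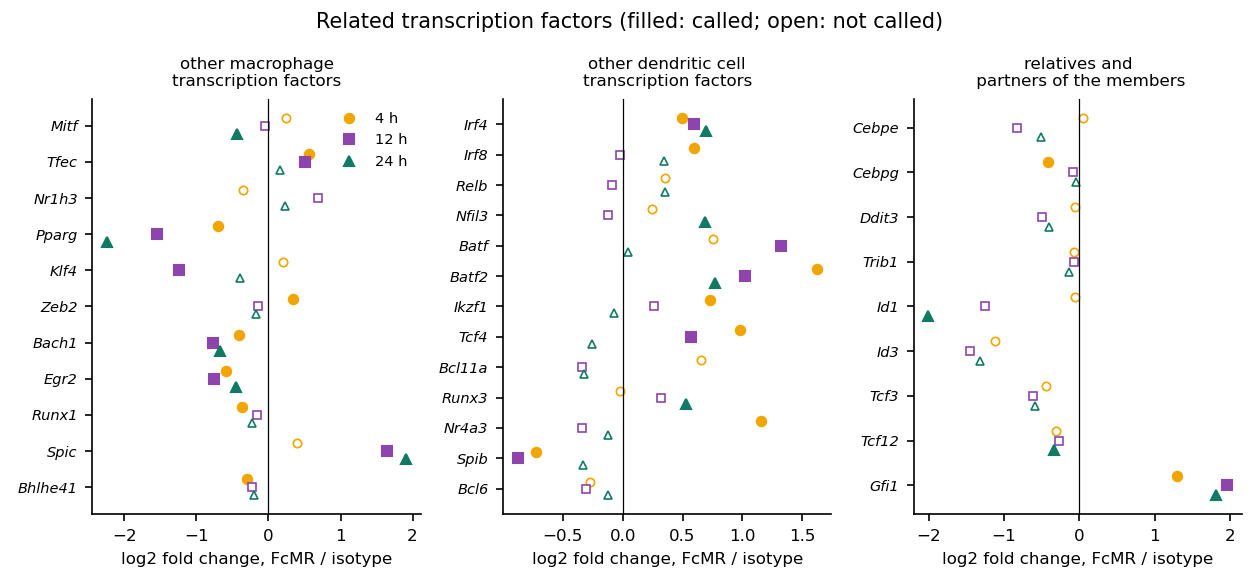
Log2 fold change of FcMR over isotype (x axis) for 11 other macrophage factors, 13 other dendritic cell factors and 9 relatives or partners of the described genes, with circles for 4 h, squares for 12 h and triangles for 24 h; filled symbols were called and open symbols were not. Pparg and Bach1 are to the left at each time, and Irf4, Batf2 and Gfi1 are to the right at each time.

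Among 9 relatives and partners, 1 rose and 1 fell at 4 h, 1 rose at 12 h, and 1 rose and 2 fell at 24 h (medians -0.07, -0.49 and -0.40). Of all genes, 8.62%, 8.61% and 11.4% were called higher at these times, and 9.13%, 7.49% and 9.44% lower. After GC correction 1 rose and 4 fell at 12 h, and the counts at 4 and 24 h were the same. Of the 13468 genes, 2320, 1867 and 2195 were then called higher at the 3 times, and 1436, 1506 and 1839 lower. The riser was Gfi1, a repressor that opposes monocyte factors, by log2 1.30, 1.96 and 1.81. At 24 h it stood at 1.51 ± 0.69 CPM under FcMR and 0.45 ± 0.218 under isotype. Id1, a relative of Id2, went opposite to it, by log2 -2.002 at 24 h, from 1.29 ± 0.483 CPM under isotype to 0.361 ± 0.158 under FcMR. The lower of each of these 2 pairs of values is near the level that 3 counts stand for. Tcf12, an E protein that Id factors bind, fell at 24 h (-0.33), and Cebpg, a C/EBP partner, at 4 h (-0.42). Without isotype 4 h replicate 3, 2 rose and 2 fell at 4 h, and the median turned to 0.39.

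Surface and effector genes of the same 2 cell types gave mixed counts. They stand beside 8.62%, 8.61% and 11.4% of all genes called higher at the 3 times, and 9.13%, 7.49% and 9.44% called lower. With GC correction, 2320, 1867 and 2195 of the 13468 genes were called higher, and 1436, 1506 and 1839 lower. Of 22 macrophage genes tested (24 in the table), 6 rose and 2 fell at 4 h, 3 rose and 3 fell at 12 h, and 2 rose and 10 fell at 24 h (medians 0.11, -0.24 and -0.48). After GC correction 9 rose and 2 fell at 4 h, 4 rose and 9 fell at 12 h, and 3 rose and 12 fell at 24 h. At 24 h the complement genes C1qc, C1qb and C1qa fell, with log2 fold changes of -2.20, -1.91 and -1.68, and C1qb had fallen at 12 h too (-0.98). Cd14, a co-receptor for lipopolysaccharide, rose at each time (1.38, 1.56 and 2.19), and Adgre1 rose at 12 and 24 h (0.72 and 0.85). Of 23 dendritic cell genes, 5 rose and none of the 23 fell at 4 h, 4 rose and 4 fell at 12 h, and 7 rose and 3 fell at 24 h (medians 0.29, 0.04 and 0.06). After GC correction 11 rose and none of the 23 fell at 4 h. At 12 h 8 then rose and 5 fell, and at 24 h 9 rose and 5 fell. Cd40, which receives T cell help, rose by 1.79, 1.98 and 1.85, and Btla by 1.06, 1.71 and 2.70. Ccr7, the lymph node homing receptor, rose by 0.55 at 4 h and 0.76 at 24 h, and Kit by 1.07 at 24 h. Clec9a fell at 12 h (-1.52) and Clec10a at 24 h (-0.94). Without isotype 4 h replicate 3, 8 of the 22 macrophage genes rose and none of the 22 fell at 4 h (median 0.52), and 9 of the 23 dendritic cell genes rose and 1 fell (median 0.33).

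A list of 10 effector genes linked to C/EBP factors, chosen with earlier results of these data known, is given as a description. The activity of C/EBP factors was not tested. Of these, 6 rose at 4 h, 8 at 12 h and 7 at 24 h, and none of the 10 fell (medians 1.30, 2.36 and 2.40). Of all genes, 8.62%, 8.61% and 11.4% were called higher at these times. After GC correction 7, 9 and 7 of the 10 rose, beside 2320, 1867 and 2195 of the 13468 genes. Il6 rose by log2 3.31, 4.01 and 3.40, and Csf3 by 3.35 and 3.27 at 4 and 12 h. Ptges, which makes prostaglandin E, rose by 1.26, 2.32 and 3.89. Without isotype 4 h replicate 3 the 4 h count was again 6, with a median of 1.61.

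The genes whose log2 CPM followed each member most closely over the 21 libraries are given as a description, since the libraries share their groups. For Maf they were Nav2 (r = 0.85) and C3ar1 (0.83), and for Zbtb46 Flrt3 (0.96) and Man1a (0.95). For Id2 they were Srgn (0.93) and Nfkbia (0.92), and for Bhlhe40 Hepacam2 (0.95) and Fosb (0.95). The nearest to Cebpa were Cerk and Cipc (both 0.98), and those to Cebpb were Hspa1a (0.91) and Gng5 (0.90). Srf (0.99) and Szrd1 (0.98) were nearest to Spi1, Pcbp1 (0.93) and Snx11 (0.93) to Cebpd, and Spsb2 and Fam89b (both 0.96) to Batf3. After GC correction Nav2, Man1a, Srgn, Spsb2 and Hepacam2 stayed among the nearest 2 of their member, and those of Spi1, Cebpa, Cebpb and Cebpd were all different.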

How the data were processed

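Total RNA of 21 libraries (7 groups of 3) was prepared with a TruSeq RNA v2 kit and read from 1 end for 75 bases, per the labels. The submitters' processing notes name CASAVA 1.8.2, kallisto 0.44.0, DESeq2, mm10 and GRCm38, without roles. The gene table the authors call raw holds whole numbers, treated here as estimated counts that the authors deposited already rounded. The deposited normalized table, a linear signal scaled by the authors, gave alternative scaling factors only. IDs were matched without version to GENCODE M21.

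Counts were fitted with edgeR 4.0.16 (R 4.3.3): filterByExpr with minimum 10, TMM factors, 1 coefficient per group, glmQLFTest, Benjamini-Hochberg over 13468 genes. SE is the log2 fold change over the root of F. GC correction entered a lowess curve (span 0.3) of each library's log2 deviations on transcript GC as an offset of the same fit. Alternatives used limma 3.58.1 and DESeq2 1.42.0 among others. Floors cover counting error only. No 2 replicates were alike enough to be 1 library (lowest chi-square 2.98 per degree of freedom). The genes, lists and motifs were chosen with earlier results of these data known. From each list at most the 3 highest and 3 lowest called genes are named per comparison, and a gene so named is given at each time it was called. One gene of a list is not reported here and was left out of that list's counts.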

Additional observations from a re-analysis of the deposited data

Results flagged for a closer look

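The FcMR effect differed over the 3 times for 3 of the 9 genes by a joint edgeR quasi-likelihood test of the FcMR minus isotype difference, which called 11% of all genes tested. Maf had an adjusted p of 0.00037, with log2 differences of 0.43, -0.66 and -1.63 at 4, 12 and 24 h. The FcMR libraries were below all isotype libraries in 3 of 3 at 12 h and again at 24 h. Bhlhe40 had an adjusted p of 0.00128, with -0.07, -0.13 and 0.38, and 3 of 3 FcMR libraries were above the isotype libraries at 24 h. Zbtb46 had an adjusted p of 0.0119, with means of 41.1 and 41.2 CPM at 4 h and differences of 0.38 and 0.69 at 12 and 24 h. The Zbtb46 call held in 23 of 28 alternatives. It was lost with the scaling of the deposited table (adjusted p = 0.159), without the filter on low counts (0.101) and with only the groups compared (0.0552), and also without FcMR 4 h replicate 3 (0.102) and without isotype 4 h replicate 1 (0.0528).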

How the results depend on the processing

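Of the settings other than leaving out a single library, 550 values kept direction and side of the threshold, 17 lost a call, 29 gained one and 34 changed sign. With single libraries left out these numbers were 377, 19, 5 and 31. No called result changed sign. The number of the 9 genes called ranged over single left-out libraries from 2 to 3 (4 h), 1 to 3 (12 h) and 5 to 5 (24 h) against isotype, from 2 to 5, 2 to 3 and 5 to 7 for isotype against untreated, and from 3 to 4 for the change from 4 to 24 h. At 4 h against isotype it was 1 with only the groups compared and 4 without both libraries that break the order of library numbers (FcMR 12 h replicate 1 and isotype 4 h replicate 3). Isotype against untreated had 1 at 4 h with GC correction, 1 with the block and GC correction and 5 without both libraries. At 12 h it had 5 with the block and GC correction. In the same order, 5845, 6010, 6712 and 7233 of all genes were called. The change from 4 to 24 h had 5 without both libraries.

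Same-numbered libraries deviated together with a mean r of -0.071, 0.106 and 0.014 for the 3 FcMR comparisons. These deviations were taken before GC correction and include the GC tilt. Whether the replicate numbers pair the samples cannot be told from them. With the replicate block, 2, 3 and 5 of the 9 genes were called against isotype, the same counts as without it. Over all genes, 2390, 2169 and 2813 were called against isotype, 1873 for the change and 1484 jointly. The block gave more in each: 2541, 2290 and 2911 against isotype, 2011 for the change and 1620 jointly. GC correction gave 3756 at 4 h, 3373 at 12 h, 3134 for the change and 2990 jointly. The block with GC correction gave 3948, 3580, 3350 and 3216. Only the groups compared gave 868 at 4 h, 2881 for isotype at 4 h (4792 in the full fit) and 1038 for the change. No filter gave 1199 for the change and 925 jointly. Leaving out both libraries gave 3898 at 4 h, 3713 for the change and 2616 jointly.

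Values that changed sign were all of results not called, and the cause was not tested. At 4 h against isotype, Batf3 (-0.19) was 0.076 with GC correction, 0.26 in limma-voom, 0.053 with the block and GC correction and 0.91 without both libraries. Cebpb (-0.06) was 0.020 in DESeq2, 0.16 with GC correction, 0.015 with RLE factors, 0.014 with the factors of the deposited table, 0.059 in limma-voom, 0.044 with no filter, 0.014 with the replicate block, 0.15 with the block and GC correction and 0.54 without both libraries. Bhlhe40 was 0.047 with no filter. Zbtb46 was -0.0080 with only the groups compared, -0.0039 with the block and -0.059 without both libraries. At 12 h Cebpd (-0.03) was 0.047 with the replicate block, 0.049 with the block and GC correction and 0.22 without both libraries, and Spi1 was 0.0065 without both. At 24 h Cebpd (0.09) was -0.18 with the factors of the deposited table and -0.021 in limma-voom. For isotype against untreated, Cebpb at 4 h was 0.50 with GC correction and 0.49 with the block as well, Maf at 4 h -0.050 with no filter, Cebpd at 4 h -0.65 without both libraries, Cebpa at 12 h -0.14 with GC correction and -0.12 with the block as well, and Cebpd at 12 h 0.17 in limma-voom. For the change from 4 to 24 h, Id2 (0.10) was -0.094 with GC correction, -0.0033 with no filter and -0.11 with the block and GC correction, and Cebpb was -0.15 without both libraries.

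With single libraries left out, the 4 h values against isotype ran from -0.059 to 0.090 for Zbtb46, -0.58 to 0.90 for Batf3, -0.091 to 0.019 for Bhlhe40, -0.31 to 0.54 for Cebpb, -0.20 to 1.29 for Cebpd and -0.22 to 0.76 for Spi1. At 12 h they ran from -0.32 to 0.41 for Cebpd and -0.43 to 0.0064 for Spi1, and at 24 h from -0.12 to 0.33 for Cebpd. For isotype against untreated they ran at 4 h from -0.055 to 0.16 for Maf and -0.66 to 0.83 for Cebpd, and at 12 h from -0.48 to 0.014 for Cebpb, -0.50 to 0.23 for Cebpd and -0.28 to 0.0077 for Spi1. For the change they ran from -1.20 to 0.29 for Cebpd, -0.028 to 0.17 for Id2 and -0.16 to 0.70 for Cebpb. The lowest counts were 12 for Cebpd and 4 for Batf3, but the spread within isotype 4 h exceeded counting error: Batf3 was at 0.722 CPM (exact 95% interval 0.197 to 1.85) in one library and at 7.99 (6.22 to 10.1) in another.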
